A study of Homo sapiens with 21 samples.

Results

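NAP1L3, ZNF717, ARNT2, LOXL3, ADGRG1, CDKL2 and LCP1 are 7 of the 18374 genes that had a probe set of their own on the arrays. They were chosen from these measurements because their levels stood apart in the parkin clones PK7 and PK19, while the third parkin clone, PK25, stayed near the vector clone V22 of the same array series. Each gene had 1 probe set with its symbol, so no choice between probe sets was needed. Because the levels in PK7, PK19, PK25 and V22 chose the genes, those levels are described here with no test.

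Gene expression was measured on whole-transcript arrays in clones of the established glioblastoma line U-87MG, a human tumour line. The 3 parkin clones (PK7, PK19 and PK25) stably expressed parkin, a ubiquitin ligase, and the 3 vector clones (V8, V17 and V22) stably carried the vector alone. No other agent is named for any clone, and the promoter that drove parkin is not given in the sources used here. Every clone is a single derived line, so a level common to PK7 and PK19 cannot be told apart from a property of these 2 lines. Each clone had 3 arrays in an array series, with PK7, PK19, PK25 and V22 in the second series and V8, V17 and V22 again in the first. The series was read from the prefix of the array names, which is an assumption, as is their order. Values are log2 of the RMA intensity, and a difference of 1 is a 2-fold change. Nothing says that the arrays of a clone came from separate cultures, so every p-value below reflects array-to-array spread, which may be technical. How strongly each clone expressed the introduced gene is not analysed here. In bulk RNA, fewer cells with a gene on and less RNA in each cell cannot be told apart.

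The genes act in different places in the cell. NAP1L3 belongs to the nucleosome assembly proteins, which carry histones, and ZNF717 is a zinc finger gene of the type whose proteins carry a KRAB repressor domain. ARNT2 is a bHLH-PAS transcription factor that pairs with sensors such as hypoxia-inducible factors and the aryl hydrocarbon receptor, and is best known from neurons. LOXL3 is a secreted lysyl oxidase that cross-links collagen and elastin, and ADGRG1 (GPR56) is an adhesion G protein-coupled receptor that binds matrix and is well studied in neural progenitors and glioma. CDKL2 is a kinase related to the cyclin-dependent kinases. LCP1 (L-plastin) bundles actin filaments and is a gene of blood cells that many solid tumour lines also express.

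Start regions are shown for NAP1L3, the gene with the widest separation, and for its neighbour FAM133A. They are also shown for both genes that were lower in PK7 and PK19. These 4 regions were taken because their content of the dinucleotide CG runs from low to above the median of all such regions. Each is the RefSeq sequence on GRCh38.p14 from 250 bases before to 50 bases after the transcript start, 5′ to 3′ on the gene's strand, with every CG in capitals. The NAP1L3 region lies at chrX:93673529-93673828 (minus strand), that of FAM133A at chrX:93673956-93674255 (plus), that of CDKL2 at chr4:75630479-75630778 (minus) and that of LCP1 at chr13:46182128-46182427 (minus).
NAP1L3: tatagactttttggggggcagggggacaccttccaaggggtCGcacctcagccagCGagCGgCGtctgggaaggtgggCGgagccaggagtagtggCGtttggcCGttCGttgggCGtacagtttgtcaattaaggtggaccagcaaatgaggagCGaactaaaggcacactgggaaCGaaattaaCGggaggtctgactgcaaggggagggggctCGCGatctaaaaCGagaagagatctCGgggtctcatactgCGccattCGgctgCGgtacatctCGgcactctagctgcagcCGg
FAM133A: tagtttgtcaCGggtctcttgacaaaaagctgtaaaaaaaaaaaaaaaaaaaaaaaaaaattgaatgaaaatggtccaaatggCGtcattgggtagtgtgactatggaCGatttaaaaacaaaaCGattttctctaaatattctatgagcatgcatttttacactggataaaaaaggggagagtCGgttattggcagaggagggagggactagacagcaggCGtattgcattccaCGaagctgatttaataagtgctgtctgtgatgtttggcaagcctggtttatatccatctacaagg
CDKL2: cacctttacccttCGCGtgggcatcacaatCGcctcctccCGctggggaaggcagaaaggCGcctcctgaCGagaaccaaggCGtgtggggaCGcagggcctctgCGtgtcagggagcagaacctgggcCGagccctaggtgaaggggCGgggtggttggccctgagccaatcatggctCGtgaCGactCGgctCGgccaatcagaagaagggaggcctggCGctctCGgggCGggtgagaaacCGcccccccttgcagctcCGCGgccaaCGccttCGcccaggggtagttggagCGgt
LCP1: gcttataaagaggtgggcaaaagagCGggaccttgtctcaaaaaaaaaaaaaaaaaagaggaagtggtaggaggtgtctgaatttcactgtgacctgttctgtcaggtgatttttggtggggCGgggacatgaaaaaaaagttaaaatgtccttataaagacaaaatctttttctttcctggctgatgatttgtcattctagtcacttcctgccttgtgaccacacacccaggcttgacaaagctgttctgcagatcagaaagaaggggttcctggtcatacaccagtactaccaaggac
CDKL2 had 24 CG in these 300 bases, NAP1L3 21, FAM133A 7 and LCP1 2, where the median of 35114 such regions was 14 and the upper quartile 28. LCP1 was thus poorer in CG than most regions, since 11.0% had fewer. RefSeq start regions were found for 6 of the 7 genes, 10 regions in all, and ARNT2 had none in the table. ZNF717 had 14 and 18 CG at its 2 starts, LOXL3 12 and 21, and ADGRG1 5, 6 and 8 at its 3 starts. On either strand, the letters ACGTG were in 0 of the 10 regions and in 21.4% of all regions, and CACGTG, which contains them, in 0 of 10 and 7.26%. GGGCGG was in 5 of 10 and 45.0% of all regions, and TATAAA in 2 of 10 and 11.5%. These matches describe letters in the sequence only. The genes that were higher and those that were lower did not sort by CG content, as CDKL2 (24) and LCP1 (2) were at opposite ends.

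Some facts about the arrays bear on the levels. Array medians lay between 6.21 and 6.37. Markers of the glioma line VIM and CD44 were bright in all clones, at 12.50 and 12.11 in PK7, while the astrocyte markers S100B and AQP4 were among the dimmest 30% of probe sets. GFAP was at 6.34 in PK7 and 6.31 in V22 of the second series. Between PK7 with PK19 and PK25 with V22, no listed astrocytic, blood, endothelial, epithelial or neuronal marker passed the limma call rule given below. The astrocytic list's stem cell factor gene SOX2 nevertheless differed by -0.86, NES of that list by -0.58 and CD44 by 0.66. The blood markers HCLS1 and CD53 differed by 0.83 and 0.59, and the neuronal marker SNAP25 by 0.82. Arrays were apart for NES (0.33), CD44 (0.28) and HCLS1 (0.08) and overlapped for SOX2, CD53 and SNAP25. The set 2 arrays of both series, and V22 set 5, departed from the other arrays of their clone in several of the 7 genes, as given below. Values without these arrays, an alternative chosen after seeing the data, stand beside the results they touch.

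**Figure D1:**
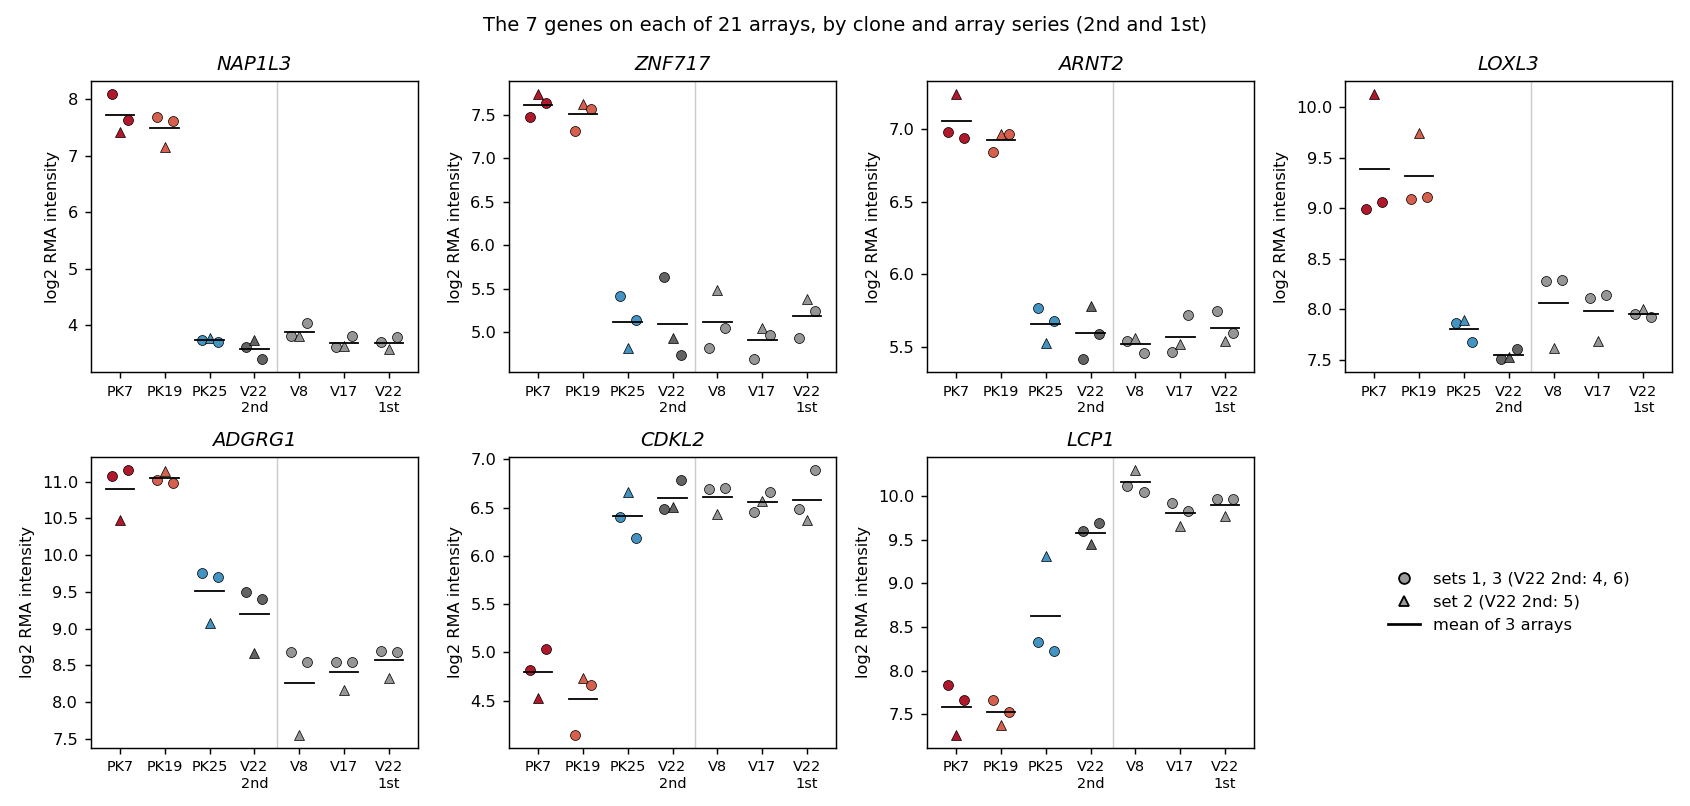
The log2 RMA intensity of the 7 genes is plotted for each of 21 arrays by clone, with the second array series left of the grey line and the first right of it. Bars are means of 3 arrays and triangles are the set 2 arrays and V22 set 5. NAP1L3 lies between 7.15 and 8.09 on the 6 arrays of PK7 and PK19 and between 3.41 and 4.05 on the 12 vector arrays, and LCP1 shows PK25 between both groups.

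NAP1L3 had the widest separation of the 7 genes. It was at 8.09, 7.43 and 7.64 on the PK7 arrays and 7.69, 7.15 and 7.62 on the PK19 arrays, against 3.74, 3.77 and 3.71 on the PK25 arrays and 3.61, 3.75 and 3.41 on the V22 arrays of the second series. All 6 arrays of PK7 and PK19 were high and the groups were apart by 3.38. The mean of PK7 and PK19 exceeded that of PK25 and V22 by 3.94 on the log2 scale. The probe set was brighter than 69.9% of all probe sets in PK7, against 13.1% in V22, so in V22 and PK25 it was near the dim end of the array. No fold is given, since whether that level lies above background was not tested. Over the 12 vector arrays of both series it ranged from 3.41 to 4.05 with a median of 3.73, and every PK25 array lay within that range. The set 2 arrays were the lowest of their clone in PK7 and PK19, and the difference was 4.14 without the set 2 arrays and V22 set 5.

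ZNF717 was at 7.48, 7.74 and 7.64 in PK7 and 7.32, 7.63 and 7.57 in PK19, against 5.41, 4.81 and 5.14 in PK25 and 5.63, 4.93 and 4.73 in V22 of the second series. PK25 and V22 overlapped, and both were apart from PK7 and PK19 by 1.69. The difference was 2.46, or 5.49-fold. PK25 exceeded V22 by 0.02, less than the SD of either clone (0.30 in PK25 and 0.47 in V22). That value was 0.09 without the set 2 arrays and V22 set 5, and ran from -0.16 to 0.29 as each array was left out in turn, with 0.29 when V22 set 4 was left out. ZNF717 has close relatives among zinc finger genes, and how far its probes read them was not tested.

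ARNT2, a gene best known from neurons, was at 6.98, 7.24 and 6.94 in PK7 and 6.84, 6.97 and 6.97 in PK19, against 5.77, 5.53 and 5.68 in PK25 and 5.42, 5.78 and 5.59 in V22 of the second series. Its spread within clones was small, with an SD of 0.05 to 0.18 over the 3 arrays of any clone, and the gap was 1.06. The difference was 1.36, or 2.57-fold, and the 12 vector arrays lay between 5.42 and 5.78 with all PK25 arrays among them. The mean of 5 neuronal markers was 6.38 to 6.61 in PK7 and PK19, against 6.19 to 6.46 in PK25 and V22. The median difference of these markers was 0.03, and RBFOX3, SYP, STMN2 and GAP43 differed by -0.11 to 0.17. SNAP25 differed by 0.82 (limma adjusted p = 2.54e-05, under 2-fold). It exceeded V22 by 1.33 in PK19 and 0.45 in PK7, and its arrays overlapped. The part of these markers in the result was not tested.

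LOXL3 was at 8.99, 10.13 and 9.06 in PK7 and 9.09, 9.75 and 9.11 in PK19, against 7.86, 7.89 and 7.68 in PK25 and 7.51, 7.53 and 7.61 in V22 of the second series. The set 2 array was the highest in both PK7 (by 1.11 over the mean of the other arrays) and PK19 (by 0.65), and in PK25 it differed by 0.11. The difference was 1.68 over all arrays and 1.40 without the set 2 arrays and V22 set 5. All 3 PK25 arrays were above the 3 V22 arrays of the second series, but within the range of the 12 vector arrays, 7.51 to 8.29.

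ADGRG1 was at 11.08, 10.48 and 11.16 in PK7 and 11.02, 11.14 and 10.98 in PK19, against 9.76, 9.08 and 9.70 in PK25 and 9.50, 8.67 and 9.41 in V22 of the second series. The groups were apart by 0.71, and the difference was 1.62, or 3.07-fold. One array, PK7 set 2 at 10.48, set that gap, which was 1.21 without it. Leaving out the set 2 arrays and V22 set 5 gave a gap of 1.21 and a difference of 1.46. Set 2 was low in PK7, PK25 and the 3 vector clones of the first series, and set 5 in V22 of the second, by 0.36 to 1.06 below the mean of the other arrays of the clone, whereas in PK19 it was 0.14 above. PK25 exceeded V22 by 0.32, or by 0.06 without V22 set 5, 0.20 without PK25 set 1 and 0.54 without PK25 set 2, and 2 of its 3 arrays were above the highest of the 12 vector arrays (9.50). PK25 thus had arrays outside the range of the 12 vector arrays in ADGRG1, but not in NAP1L3, ZNF717, ARNT2 and LOXL3. Against V22 of the second series alone, the PK25 arrays overlapped V22 in ADGRG1 but not in LOXL3.

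CDKL2 ran the other way. It was at 4.82, 4.53 and 5.04 in PK7 and 4.15, 4.74 and 4.66 in PK19, against 6.40, 6.66 and 6.19 in PK25 and 6.49, 6.51 and 6.79 in V22 of the second series. The low arrays of PK7 and PK19 were apart from the others by 1.15, with a difference of -1.85 (3.60-fold lower). One PK25 array, at 6.19, lay below the vector arrays, which ranged from 6.37 to 6.89.

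LCP1 did not follow the common pattern in PK25. It was at 7.84, 7.27 and 7.66 in PK7 and 7.67, 7.38 and 7.53 in PK19, against 8.33, 9.32 and 8.23 in PK25 and 9.60, 9.45 and 9.69 in V22 of the second series. All 3 PK25 arrays were below the lowest of the 12 vector arrays (9.45), and above every PK7 and PK19 array. Relative to V22 of the second series, LCP1 differed by -1.99 in PK7 and -2.05 in PK19, and by -0.95 in PK25, so PK25 had 47.1% of the mean shift of PK7 and PK19. The set 2 array of PK25 stood 1.04 above its other arrays, and PK25 differed from V22 by -1.36 once the set 2 arrays and V22 set 5 were left out. The difference of PK7 and PK19 was -1.54 against PK25 and V22 together, -1.07 against PK25 alone and -2.02 against V22 alone. All 9 parkin arrays were thus below all 12 vector arrays, so the pattern of LCP1 was not limited to PK7 and PK19. Of 10 blood markers listed, 9 were measured and 4 were among the dimmest 30% of probe sets, PTPRC among them, with a list mean of 4.97 to 5.16 in PK7 and PK19, against 4.80 to 5.06 in PK25 and V22. The median difference of these markers was -0.01. Among them HCLS1 differed by 0.83 (limma adjusted p = 1.04e-04, under 2-fold), opposite in sign to LCP1, with arrays apart by 0.08. CD53 differed by 0.59 (limma adjusted p = 7.94e-04) and LAPTM5 by 0.46 (limma adjusted p = 9.19e-04). Both were under 2-fold with overlapping arrays. CD53 exceeded V22 by 0.12 in PK7 and 0.81 in PK19, and LAPTM5 by 0.75 and 0.11. The other measured blood markers differed by -0.16 to 0.05. HCLS1 exceeded V22 by 1.45 in PK7 and 0.34 in PK19, and in the first series it averaged 6.34 in V8 and 4.94 in V22. The part of these markers was not tested.

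The 6 arrays of PK7 and PK19 were also set against all 15 other arrays, those of the first series included. The gap to those 15 arrays was 3.10 for NAP1L3, 1.69 for ZNF717, 1.15 for CDKL2, 1.06 for ARNT2, 0.71 for LOXL3 and ADGRG1, and 0.39 for LCP1. PK25 had arrays outside the range of the 12 vector arrays in CDKL2 (1 array), ADGRG1 (2) and LCP1 (3). The levels in PK25 and in V22 of the second series helped choose the genes, so these gaps and placements were partly fixed in advance. How often they occur over all probe sets was not computed, and no count of genes is read from them. The comparisons of PK7, PK19 and PK25 with V22 share the V22 arrays.

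The 7 genes are a selection, not the whole of this pattern. Of 26947 probe sets, 962 (3.57%) had all 6 arrays of PK7 and PK19 above all 6 of PK25 and V22 of the second series, and 961 (3.57%) had them below. Since this comparison chose the genes, nothing is read from their count against that share. By width of the gap among all probe sets, NAP1L3 ranked 2, ZNF717 9, LOXL3 20, ARNT2 24 and ADGRG1 64 among those higher, and CDKL2 ranked 9 and LCP1 176 among those lower. In the same direction, another 57 genes had a gap at least as wide as ADGRG1 and another 121 at least as wide as LCP1. TNIP3 and FAM133A lay just above and just below ADGRG1, and FLRT3 and PRRX1 just above and just below LCP1, at the same rounded gaps of 0.71 and 0.39. These places rest on single arrays for both genes. ADGRG1 ranked 23 without PK7 set 2, and LCP1 ranked 71, with a gap of 0.56, without PK7 set 1.

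Among genes outside the 7 that were higher in PK7 and PK19, the widest gaps were those of C1S (3.95), a complement protease gene, RPS6KA6 (2.42), a kinase gene, and ALDH2 (2.04), an aldehyde dehydrogenase gene. ACAT2 (2.02) and CXCL8 (1.92), a chemokine gene, came next. C1S ranged from 9.46 to 10.41 in PK7 and PK19, against 4.45 to 5.51 in PK25 and V22. Among those lower, HSD17B2 (2.79), a steroid dehydrogenase gene, LRRTM4 (2.45), SEMA6D (2.02), a semaphorin gene, LOC151760 (1.46) and EXOC2 (1.35) had the widest gaps. HSD17B2 ranged from 4.92 to 5.67 in PK7 and PK19, against 8.46 to 8.72 in PK25 and V22.

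**Figure D2:**
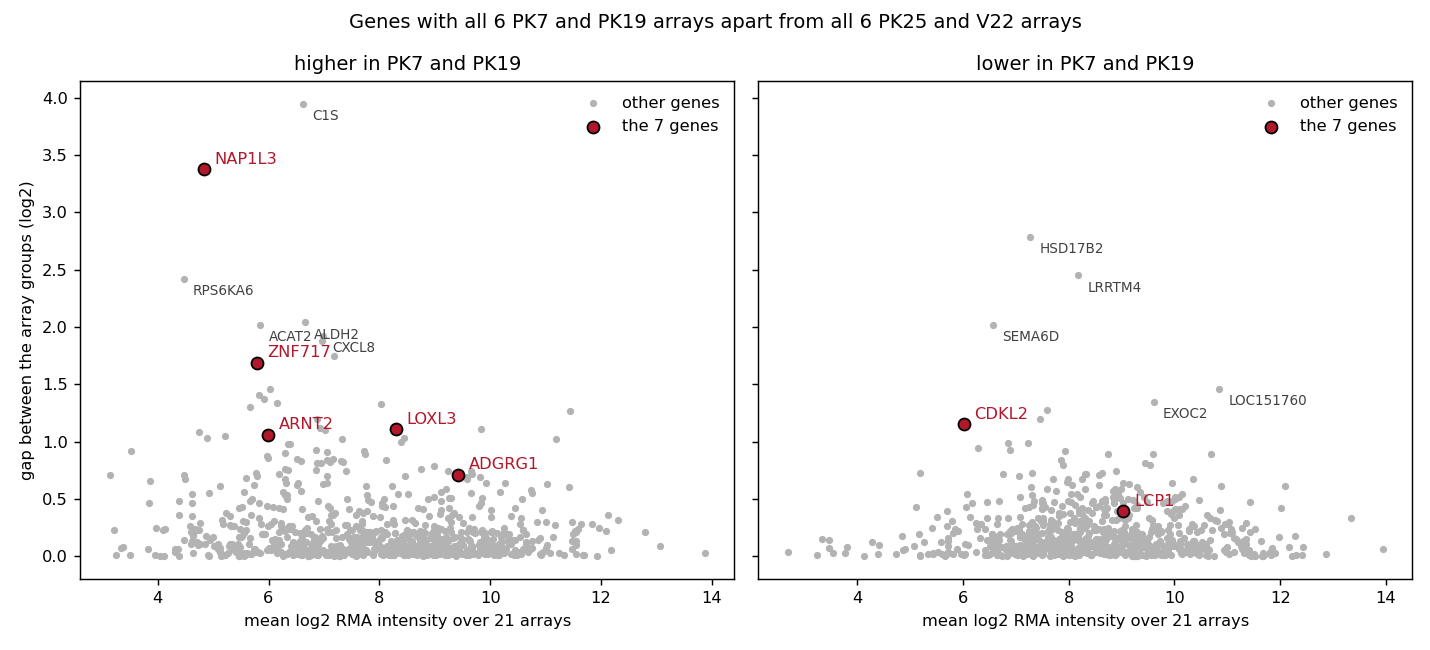
For genes whose 6 PK7 and PK19 arrays lie apart from the 6 PK25 and V22 arrays of the second series, the gap in log2 units is plotted against the mean log2 intensity over 21 arrays, for genes higher (left) and lower (right) in PK7 and PK19. NAP1L3 at 3.38 is exceeded by C1S at 3.95, and LCP1 at 0.39 lies among many other genes.

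PK7 and PK19 had similar levels of the 7 genes, which is partly fixed by the choice of genes that stood apart in both, so their differences are given with no test. PK7 minus PK19 was 0.28 for CDKL2 (SE 0.17), 0.23 for NAP1L3 (SE 0.15), -0.14 for ADGRG1 (SE 0.27) and 0.12 for ARNT2 (SE 0.11). It was 0.11 for ZNF717 (SE 0.21), 0.07 for LOXL3 (SE 0.24) and 0.06 for LCP1 (SE 0.20). The sign of LOXL3 and ADGRG1 turned without the set 2 arrays and V22 set 5, to -0.08 and 0.12.

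The vector clones of the first series did not enter the choice and were tested against each other with limma over all probe sets. A call needed an adjusted p under 0.05 and at least a 2-fold difference. V8 minus V22 called 0 of the 7 genes, against 0.98% of all probe sets, and V17 minus V22 called 0 of 7 and 0.0% of all, with arrays apart in 0 of 7 and 8.71% of all. In V17 minus V22, limma gave an unadjusted p under 0.05 for 0 of the 7 genes and 730 probe sets (2.71%). NAP1L3 averaged 3.89 ± 0.14 in V8 and 3.70 ± 0.11 in V22, and LCP1 averaged 10.16 ± 0.13 in V8 and 9.90 ± 0.11 in V22 (SD, n = 3 arrays each). In these 2 genes the arrays of V8 were all above those of V22, as groups were apart in 24.3% of all probe sets. Their differences were 0.19 and 0.25 with limma adjusted p of 0.583 and 0.585. LOXL3 differed by 0.11 (SE 0.24, limma adjusted p = 0.892) between V8 and V22, and by 0.35 (limma adjusted p = 0.0274, under 2-fold) without the set 2 arrays and V22 set 5. Over the 7 genes the 95% intervals reached from -0.87 to 0.68 for V8 minus V22 and from -0.72 to 0.53 for V17 minus V22.

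The vector clone V22 was present in both series. Its arrays of the second series were among the levels that chose the genes, so its differences between series are also given with no test. ADGRG1 averaged 9.19 ± 0.46 in the second series and 8.57 ± 0.21 in the first (SD, n = 3 arrays each). This difference was 0.62 (SE 0.27), and without the set 2 arrays and V22 set 5 it was 0.77. The 0.62 was larger than the 0.32 by which PK25 exceeded V22 in the second series. LOXL3 differed by -0.41 (SE 0.24) and LCP1 by -0.32 (SE 0.20), and NAP1L3, ZNF717, CDKL2 and ARNT2 by -0.11 to 0.01.

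**Figure D3:**
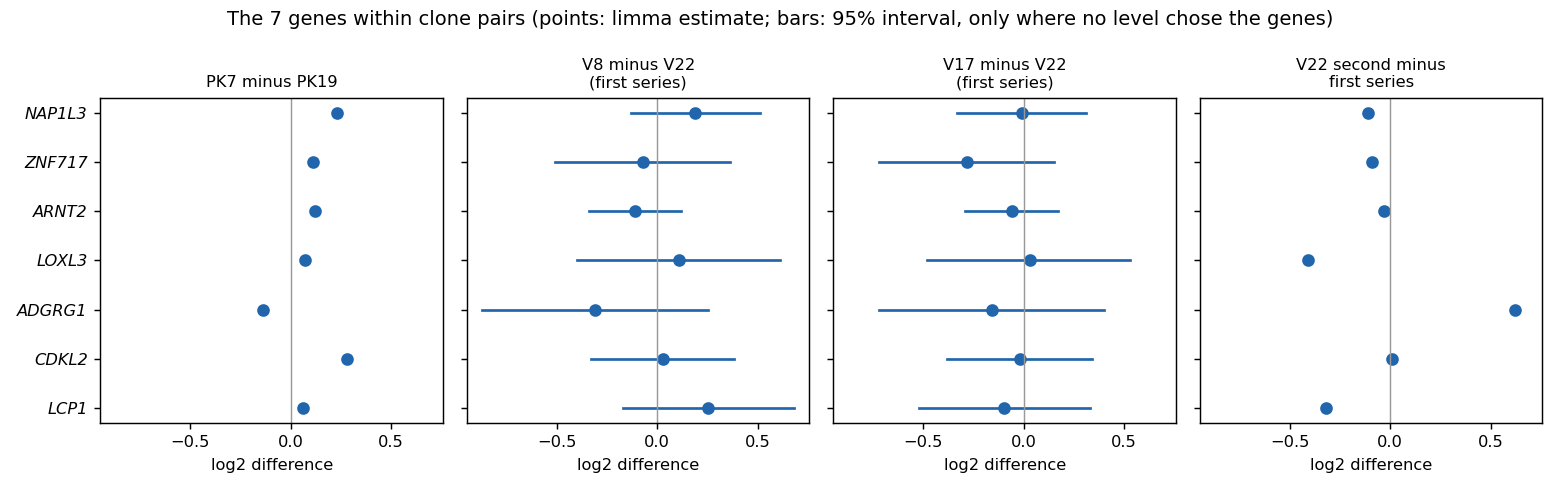
The log2 differences of the 7 genes are plotted for PK7 minus PK19, V8 minus V22 and V17 minus V22 in the first series, and V22 in the second minus the first series, with 95% intervals from limma for both comparisons of vector clones in the first series. Those intervals reach from -0.87 to 0.68 and all include 0, and the point farthest from 0 is ADGRG1 between the series of V22, at 0.62.

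The chromosome neighbours of the 7 genes were then examined for the contrast that chose the genes, PK7 and PK19 minus PK25 and V22 of the second series. The genes lie on chromosomes X, 3, 15, 2, 16, 4 and 13, and 5 measured protein-coding genes were taken on each side by RefSeq order. Of 70 neighbours, 3 were called higher and 0 lower, where 1.21% of all probe sets were called higher and 0.531% lower, 1.74% in all. The median difference of the neighbours was 0.02, against -0.02 over all probe sets.

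FAM133A, which lies next to NAP1L3, was called. It ranged from 3.69 to 4.42 in PK7 and PK19, against 2.47 to 2.98 in PK25 and V22, and averaged 3.90 in PK7 and 4.18 in PK19, against 2.81 in PK25 and 2.81 in V22. The arrays of the groups did not overlap, and the difference was 1.23 (SE 0.12, limma adjusted p = 2.84e-07). Its probe set is dim, as 8.39% of probe sets were dimmer. The 2 genes lie head to head, with the RefSeq starts of the regions printed above 628 bases apart on opposite strands. The neighbour on the other side of NAP1L3, PABPC5, differed by 0.13 (limma adjusted p = 0.462). KLHL4, the third gene on that side and chosen for mention after its values were seen, differed from V22 by 0.28 in PK7 and 1.77 in PK19, and its mean difference of 0.97 was under 2-fold (limma adjusted p = 1.45e-06).

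DOK1, a docking protein gene next to LOXL3, differed by 0.42 (SE 0.09, limma adjusted p = 0.00143), which is under 2-fold. Both genes have 2 RefSeq starts in the table, on opposite strands. The nearest pair of starts is 421 bases apart with the transcripts overlapping, and another pair is 778 bases apart head to head. HTRA2, on the other side of LOXL3, differed by -0.22 (limma adjusted p = 0.0498). HK2, a hexokinase gene 4 places from LOXL3, was called with 1.02 (SE 0.13, limma adjusted p = 7.60e-06). It exceeded V22 by 0.76 in PK7, 1.56 in PK19 and 0.28 in PK25, and the difference was 0.86 without the set 2 arrays and V22 set 5 and 0.88 against PK25 alone, both under 2-fold. It was also under 2-fold without PK7 set 2 (0.88), PK19 set 2 (0.96) or PK25 set 3 (0.99).

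CEMIP, a hyaluronan-degrading factor gene 2 places from ARNT2, was called with 1.48 (SE 0.16, limma adjusted p = 1.14e-06), but its arrays overlapped. It exceeded V22 by 2.46 in PK7 and 0.19 in PK19 and was below it in PK25 (-0.32), so the mean rests on PK7. The immediate neighbours of the other genes did not pass. FAH and ABHD17C beside ARNT2 differed by -0.06 and 0.08, and FRG2C and ROBO2 beside ZNF717 by -0.36 and -0.04. ODAPH and G3BP2 beside CDKL2 differed by 0.02 and -0.14, CPB2 and LRRC63 beside LCP1 by -0.01 and 0.44, and CCDC102A and ADGRG3 beside ADGRG1 by 0.02 and -0.11. ADGRG3 encodes a receptor of the same family as ADGRG1.

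**Figure D4:**
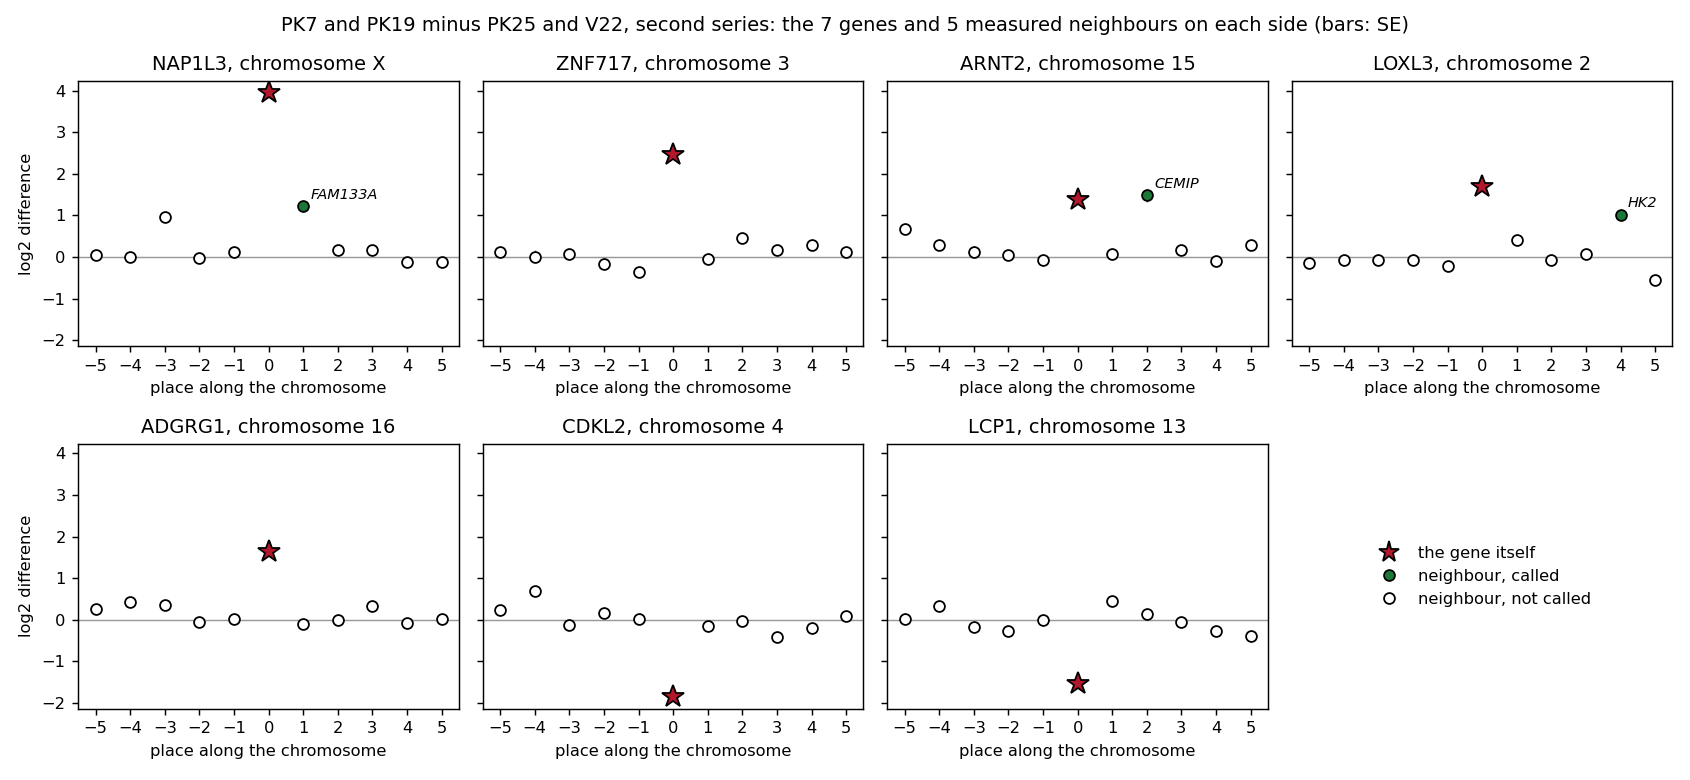
The log2 difference of PK7 and PK19 minus PK25 and V22 of the second series is plotted for the 7 genes (stars) and 5 measured protein-coding neighbours on each side, with bars for the SE, mostly hidden by the points. FAM133A (1.23), HK2 (1.02) and CEMIP (1.48) are the called neighbours.

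Genes related to the 7 by family or partnership were compared in the same contrast. Of 123 listed, 114 were measured, and 4 were called higher and 3 lower. That is against 1.21% of all probe sets called higher and 0.531% lower. The median difference over these relatives was -0.04, against -0.02 over all probe sets. These p-values treat arrays as observations. With the 4 clone means as observations, 2 against 2, limma called none of the 10 relatives and neighbours named as called, with adjusted p of 0.102 to 0.609.

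Of 15 measured histone chaperone genes listed with NAP1L3, NAP1L2 was called higher and none lower. NAP1L2, a nucleosome assembly protein gene on the same chromosome, averaged 4.36 in PK7 and 5.87 in PK19, against 3.28 in PK25 and 3.33 in V22 of the second series. The arrays were apart by 0.66, and the difference was 1.81 (SE 0.12, limma adjusted p = 1.84e-09). The PK19 mean was higher than the PK7 mean. The NAP1L2 probe set is dim, as 15.7% of probe sets were dimmer.

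Of 14 measured genes listed with LOXL3, 2 were called higher and 1 lower. LOX, the founding lysyl oxidase, averaged 11.45 in PK7 and 10.68 in PK19, against 9.41 in PK25 and 9.64 in V22 of the second series, a difference of 1.54 (SE 0.23, limma adjusted p = 4.44e-05). LOXL2, another lysyl oxidase, averaged 11.79 in PK7 and 10.89 in PK19, against 10.14 in PK25 and 9.98 in V22. Its difference was 1.28 (SE 0.16, limma adjusted p = 5.34e-06), and 1.00 and no longer called without the set 2 arrays and V22 set 5. Groups were apart by 0.42 for LOX and 0.33 for LOXL2, and in both the PK7 mean exceeded that of PK19. A high LOX level was not limited to parkin clones, since in the first series LOX averaged 11.68 in V8 and 10.12 in V22, and LOXL2 averaged 10.67 in V8 and 10.18 in V22. FBN2, a fibrillin gene of elastic fibres, differed by -1.09 (SE 0.13, limma adjusted p = 3.39e-06). It was below V22 in all 3 parkin clones, with differences of -1.73 in PK7, -1.17 in PK19 and -0.72 in PK25, and its arrays overlapped. The difference was -0.73 against PK25 alone and -0.99 without PK25 set 2, both under 2-fold.

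Of 27 measured genes listed with ADGRG1, TGM2 was called higher and ADGRL2 lower. TGM2, a transglutaminase that binds ADGRG1, exceeded V22 by 1.00 in PK7, 1.99 in PK19 and 0.84 in PK25. Its difference of 1.08 (SE 0.10, limma adjusted p = 8.71e-08) came with overlapping arrays and was 0.66 against PK25 alone. ADGRL2, a latrophilin gene, averaged 7.47 in PK7 and 8.85 in PK19, against 9.51 in PK25 and 9.57 in V22, a difference of -1.38 (SE 0.07, limma adjusted p = 2.07e-11). Its arrays were apart by 0.54, and PK7 was the lowest clone. The vector clone V8 was also low in ADGRL2, at 7.90, against 9.60 in V22 of the first series.

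Of 11 measured genes listed with LCP1, TAGLN alone was called, and it was lower. TAGLN, an actin-binding gene of smooth muscle, averaged 5.94 in PK7 and 5.63 in PK19, against 6.58 in PK25 and 8.23 in V22, a difference of -1.62 (SE 0.12, limma adjusted p = 4.06e-09). Like LCP1, it was below V22 in PK25 as well (-1.65), and against PK25 alone the difference was -0.79, under 2-fold. TAGLN was at 6.48 in the vector clone V8, against 8.41 in V22 of the first series. Chosen for mention after their values were seen, ACTN1 differed by -0.71 (limma adjusted p = 1.29e-08) and PLS3 by -0.61 (limma adjusted p = 1.25e-06). Both were under 2-fold, with arrays apart by 0.24 and 0.31. PK25 differed from V22 by -0.24 in ACTN1 and 0.0039 in PLS3. The other measured genes listed with LCP1 differed by -0.16 to 0.37.

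In the other lists 0 genes were called by limma. Of 19 measured bHLH-PAS genes and coactivators listed with ARNT2, the smallest p-values were those of AHR, the aryl hydrocarbon receptor gene, with 0.66 (SE 0.11, limma adjusted p = 1.02e-04), and PER3, a clock gene, with -0.43 (limma adjusted p = 8.42e-04), both under 2-fold. Of 9 measured kinases listed with CDKL2, CILK1 differed by -0.46 (limma adjusted p = 0.00162) and MOK by -0.48 (limma adjusted p = 0.00239). MOK differed from V22 by -0.91 in PK7, -1.05 in PK19 and -1.01 in PK25. Of 19 measured genes listed with ZNF717, TRIM28, the corepressor of KRAB zinc finger proteins, differed by -0.72 (SE 0.08, limma adjusted p = 8.73e-07) and ZNF860 by 0.45 (limma adjusted p = 0.0199). ZNF860 exceeded V22 by 0.70 in PK7 but was below it in PK19 (-0.36) and PK25 (-0.55), and its arrays overlapped. TRIM28 averaged 10.28 in PK7 and 10.80 in PK19, and the vector clone V8 was also low, at 10.78, against 11.37 in V22 of the first series.

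**Figure D5:**
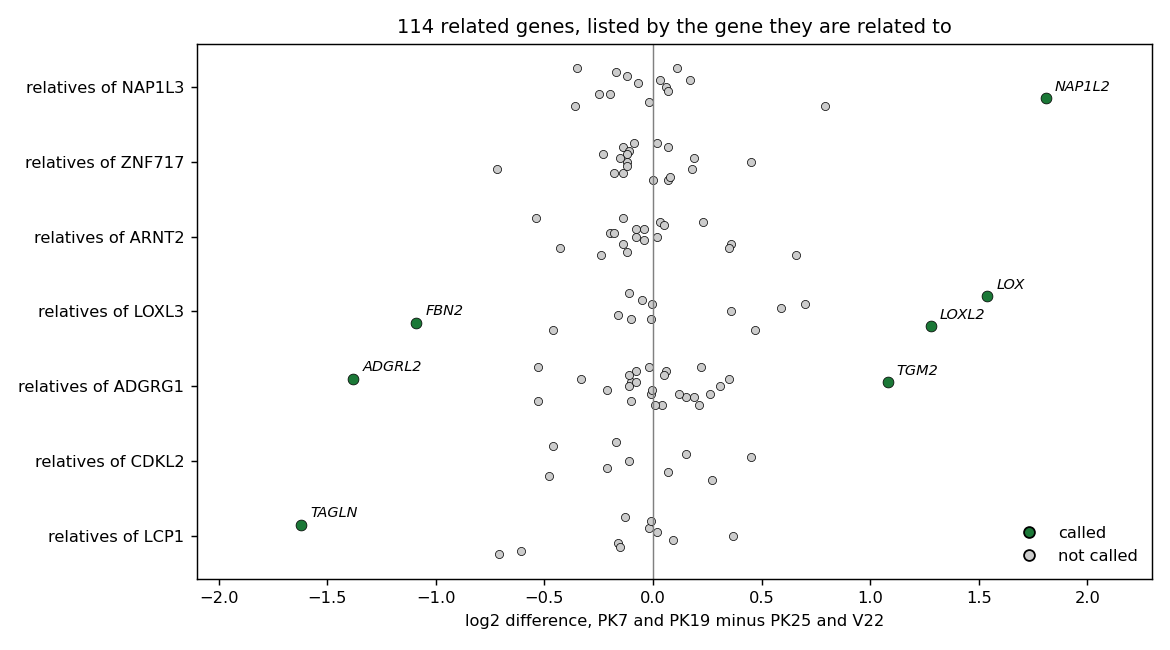
The log2 difference of PK7 and PK19 minus PK25 and V22 of the second series is plotted for the 114 measured relatives, in 1 line for each of the 7 genes, with called genes in green. NAP1L2 at 1.81 and TAGLN at -1.62 lie farthest out, and 107 relatives are not called.

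Genes whose pattern was most like each of the 7 were ranked by Pearson's r over the 21 arrays, among 14236 genes with a mean above 5. These r describe arrays that fall into few clones and share those clones. The 7 genes were chosen for the same split of clones, so genes that recur in these lists, or stand opposite, are partly fixed by that choice. ALDH2 (0.966), EDA2R (0.957) and RRAD (0.956) were most like NAP1L3. RRAD (0.950), ICAM1 (0.944) and ALDH2 (0.937) were most like ZNF717, and PCDHB2 (0.947), ICAM1 (0.947) and TMEM59 (0.945) were most like ARNT2. ALDH2, RRAD and ICAM1 each appeared in the lists of more than 1 gene.

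LOXL3 was most like ABCC3 (0.957), an efflux pump gene, ABCA2 (0.947) and MT1F (0.947), a metallothionein gene. ADGRG1 was most like FADS3 (0.937), FTH1P5 (0.936) and CTSD (0.927), the gene of cathepsin D. CDKL2 was most like INPP5A (0.956), SEMA3A (0.953) and FRMD4A (0.952), and LCP1 most like CNN2 (0.962), an actin-binding calponin gene, SEMA3A (0.961) and DIRAS3 (0.949). The most opposite pattern was that of C12orf75 for NAP1L3 (-0.956) and ARNT2 (-0.966), SEMA6D for ZNF717 (-0.950) and HNRNPF for LOXL3 (-0.954). It was that of DIRAS3 for ADGRG1 (-0.956), PCDHB2 for CDKL2 (-0.971) and CTSD for LCP1 (-0.930). PCDHB2, a protocadherin gene, was thus nearest to ARNT2 and farthest from CDKL2, and CTSD near ADGRG1 and farthest from LCP1.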

How the data were processed

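Values are the RMA intensity that the authors deposited for 26947 probe sets on 21 arrays, on a linear scale. Per the submitters' processing notes the method was RMA, with no version named. Joint or separate normalization of the array series is not given in the sources used here. They were turned into log2 values. Precision is limited by the number of arrays. Genes were named from the array's annotation table (1 symbol for 19305 probe sets, several for 1750, 5892 not listed) and updated through gene IDs to RefSeq GRCh38.p14, where 19274 matched. The 7 genes, the gene lists and the tests were chosen with earlier results of these data known. limma 3.58.1 (lmFit, eBayes; R 4.3.3) was fitted to all arrays with 7 means, 1 for each clone in each array series, with Benjamini-Hochberg adjustment over all probe sets. A call needs an adjusted p under 0.05 and at least 2-fold. The fit was run on simulated data with independent noise between arrays and known changes in PK7 and PK19. Those data held no other effects shared within a clone, series or set, so the run does not bear on such effects. PK7 minus PK19 and V22 between series were planned as tests of the 7 genes and are given as descriptions, since their levels chose the genes. Named were the 7 genes, called relatives (up to 4 a list, or else the 2 smallest p), called and immediate neighbours, the 5 widest gaps each way, and the 3 most like genes and the most opposite gene for each. Alternatives covered array scaling, dim probe sets, the variance model, the arrays in the fit, each array left out, the set number as a replicate block, the clones set against and clone means.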

Additional observations from a re-analysis of the deposited data

How the results depend on the processing

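The call counts over all probe sets stayed within 1.5 times of the reported value under scaling, filter, variance model and arrays in the fit, except as follows. With clone means as observations, the contrast of PK7 and PK19 with PK25 and V22 had 8 calls in place of 469 and 0 relatives in place of 7, with fewer observations by construction. The V22 contrast between series had 1 call, 0 with only its own arrays and 25 without the set 2 arrays and V22 set 5 (an alternative chosen after seeing the data). The causes of the last 2 changes were not tested. With 1 array left out, counts ranged from 661 to 722 for PK7 minus PK19, 424 to 487 for the contrast that chose the genes (6 to 7 relatives), 223 to 285 for V8 minus V22, 0 to 0 for V17 minus V22 and 0 to 2 for V22 between series.

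Set numbers were not taken to pair the arrays, since not every same-numbered pair of arrays correlated above 0.1 in its deviations from the clone means. Such pairs correlated at -0.0917 to 0.381 in parkin clones (differently numbered pairs -0.365 to 0.323) and at 0.0591 to 0.216 in vector clones of the first series (-0.141 to 0.0533). In these vector clones every same-numbered pair was above every differently numbered one, a hint from the data that a set shares something. In fits with set number as the replicate block, calls were 661 for PK7 minus PK19, 451 (5 relatives) for PK7 and PK19 against PK25 alone, 257 for V8 minus V22 and 0 for V17 minus V22. V22 of the second series has other set numbers, so it could not be blocked with the parkin arrays. Other probe sets were not run, since each of the 7 genes has 1, and NAP1L3 drops out without the dimmest 30% of probe sets.

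No called relative or neighbour changed sign under any alternative run. Differences that were not called and lay near 0 did. With 1 array left out they ranged, for PK7 minus PK19, from -0.29 to 0.29 (LOXL3), -0.06 to 0.22 (LCP1) and -0.27 to 0.07 (ADGRG1). For V8 minus V22 they ranged from -0.26 to 0.08 (ZNF717), -0.01 to 0.32 (LOXL3), -0.08 to 0.18 (CDKL2) and -0.52 to 0.05 (ADGRG1). For V17 minus V22 they ranged from -0.08 to 0.04 (NAP1L3), -0.05 to 0.17 (LOXL3), -0.12 to 0.14 (CDKL2) and -0.13 to 0.0019 (ARNT2). For V22 between series they ranged from -0.36 to 0.10 (ZNF717), -0.09 to 0.17 (CDKL2) and -0.12 to 0.06 (ARNT2). For the contrast that chose the genes they ranged from -0.09 to 0.02 (ROBO2), -0.01 to 0.07 (ODAPH), -0.11 to 0.01 (FAH), -0.06 to 0.06 (CPB2) and -0.04 to 0.07 (CCDC102A). Without the set 2 arrays and V22 set 5, LOXL3 had -0.08 and ADGRG1 0.12 for PK7 minus PK19, ZNF717 0.09 and CDKL2 -0.05 for V22 between series, FAH 0.06 and CCDC102A -0.10. Quantile normalization gave LOXL3 -0.01 for V17 minus V22. Against PK25 alone MOK had 0.03 and FAH 0.05, with and without the replicate block, and against V22 alone ROBO2 had 0.04 and CPB2 0.10.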
